A study of Mus musculus with 6 samples.

Results

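The genes described here encode the machinery that holds sterol regulatory element binding proteins (SREBPs) in the endoplasmic reticulum or lets them leave it: Insig1, Insig2, Scap, Srebf1 and Srebf2. They are 5 of the 30869 gene symbols in the deposited array tables, and they were chosen as every probe that carries one of these symbols. That gave 12 of the 45281 probes on the array, 4 for Insig1, 3 for Insig2, 1 for Scap and 2 each for Srebf1 and Srebf2. The RNA came from the livers of male mice of the C57BL/6 background, fed normal chow and then fasted for 24 h. There were 3 wild type and 3 Creb3l3 KO animals, and per the submitters they were littermates. Creb3l3 encodes CREBH, a transcription factor of the hepatocyte that is anchored in the endoplasmic reticulum until it is cleaved. Each mouse gave 1 Illumina WG-6 bead array. The sources used here do not give the age of the mice, how the Creb3l3 allele was made or which arrays shared a chip.

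SREBP precursors sit in the membrane of the endoplasmic reticulum bound to SCAP, an escort protein that senses cholesterol. When sterols are plentiful an INSIG protein binds SCAP and keeps the complex in place, and when sterols fall the complex travels to the Golgi, where proteases release the part of SREBP that enters the nucleus. Srebf1 is best known in liver for fatty acid synthesis and Srebf2 for cholesterol synthesis and uptake. Insig1 is itself a classical target of nuclear SREBP, whereas the liver form of the Insig2 transcript is known to be induced by fasting and repressed by insulin.

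To show where the transcripts of both INSIG genes begin, sequence from before annotated starts is printed from RefSeq, assembly GRCm38.p6, which holds 10 promoter windows for the 5 genes. Capitals mark matches, on either strand, to 4 short motifs: ATCACCCCA (the core of a sterol regulatory element), TGACGT (the core of a cyclic AMP response element), CACGTG (an E-box) and CCAAT. Insig1 is read on the plus strand at chr5:28071162-28071411, and Insig2 on the minus strand at chr1:121332663-121332839 for the most upstream start in that table and at chr1:121328025-121328274 for a start further downstream.
Insig1: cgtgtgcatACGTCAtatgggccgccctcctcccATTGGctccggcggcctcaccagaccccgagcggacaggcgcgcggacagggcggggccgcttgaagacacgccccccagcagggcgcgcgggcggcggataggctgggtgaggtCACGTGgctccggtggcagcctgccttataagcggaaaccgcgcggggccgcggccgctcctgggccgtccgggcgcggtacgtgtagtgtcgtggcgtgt
Insig2, upstream start: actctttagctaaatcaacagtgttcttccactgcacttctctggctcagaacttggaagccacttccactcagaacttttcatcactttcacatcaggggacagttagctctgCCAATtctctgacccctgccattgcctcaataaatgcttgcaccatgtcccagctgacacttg
Insig2, downstream start: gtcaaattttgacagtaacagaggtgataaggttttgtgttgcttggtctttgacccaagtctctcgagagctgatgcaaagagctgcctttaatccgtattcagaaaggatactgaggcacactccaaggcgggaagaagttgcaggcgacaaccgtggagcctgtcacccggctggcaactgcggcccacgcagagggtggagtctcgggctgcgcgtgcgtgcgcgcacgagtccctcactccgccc
The Insig1 window held TGACGT on the reverse strand from base -241 relative to the start, CCAAT on the reverse strand from base -216 and CACGTG from base -101. For the upstream Insig2 start the printed stretch runs from base -250 to -74, because the next 73 bases lie inside the annotated gene. CCAAT was found from base -136 in the printed stretch and from bases -46 (reverse strand) and -29 in the bases not printed. The printed stretch at the downstream start held none of the 4 motifs. Among the 32851 windows of that RefSeq table, which reach from 250 bases before a start to 50 after it, TGACGT was present in 7.51%, CACGTG in 7.15%, CCAAT in 37.4% and ATCACCCCA in 0.280%. Of the 10 windows of these genes, 1 held TGACGT, 3 held CACGTG, 5 held CCAAT and 1, that of Srebf2, held ATCACCCCA. The windows of Scap overlap and hold the same CACGTG site, which is counted in each of them. These matches describe the letters of the windows, and the arrays do not measure binding.

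The arrays differed in brightness. Between 15504 and 16224 of the 45281 probes were detected, at a detection p under 0.05, on the wild-type arrays, against 11846 on knockout array 1, 15867 on knockout array 2 and 4302 on knockout array 3. Over probes, Pearson's r between any pair of the other 5 arrays was 0.973 to 0.993, and between knockout array 3 and any of them 0.676 to 0.697. Values below therefore come from the 5 arrays without knockout 3 (n = 3 wild type and n = 2 knockout) unless all 6 are named, and both are given for the genes described here. The Creb3l3 probe read 1201, 949 and 929 on the wild-type arrays. On knockout arrays 1, 2 and 3 it read 148, 283 and 87.9, the last not detected (detection p 0.120). The groups did not overlap. Over the 5 arrays the probe fell 4.99-fold (limma adjusted p = 0.00271), and the sources used here do not say where it lies relative to the deleted part. Of 8 hepatocyte markers 7 passed the detection filter, 0 were called and their median log2 difference was -0.0016. Their summed deposited signal was 90605 to 94987 in wild type, 53918 on knockout array 1, 88900 on knockout array 2 and 4056 on knockout array 3. Markers of lymphocytes and adipocytes passed the detection filter for 0 genes, and those of Kupffer, endothelial, stellate, biliary and red cells and neutrophils had 0 calls each. An unadjusted p under 0.05 was reached, in either direction, by 12.1% of all 14345 tested probes. At that level 2 of 5 Kupffer cell markers (Marco, at 0.95, and Adgre1, at 0.69) stood above wild type. So did 1 of 5 endothelial markers (Lyve1, at 0.64) and 1 of 2 neutrophil markers (S100a9, at 0.74). Below wild type stood 1 of 7 hepatocyte markers (Cyp2e1, at -0.47), 1 of 5 endothelial markers (Clec4g, at -0.42) and 1 of 3 stellate markers (Reln, at -0.48). The median log2 difference of the Kupffer list was 0.09, beside -0.03 for all tested probes, and other tested probes of Adgre1 stood at 0.05 and 0.20. The summed signal of the Kupffer list was 1565 to 1890 in wild type and 951, 2153 and 513 on knockout arrays 1, 2 and 3. The part of these cell types in the results was not tested.

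In the fasted knockout liver, over the 5 arrays, Insig2 fell at 2 of its 3 probes, and the other probe was lower without passing the test. The size ran from 2.07-fold to 2.89-fold over the 3 probes. With all 6 arrays, under median scaling or without any 1 wild-type mouse, 0 of these probes were called. The 3 detected Insig1 probes stood above wild type by 0.27 to 0.68 on the log2 scale and none passed, and their direction turned under median scaling. The escort Scap stood at -0.49 and both Srebf2 probes near -0.17, none of them called, and Srebf1 was at background. In liver RNA, fewer cells of a type and less RNA per cell cannot be told apart.

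The brightest Insig2 probe, ILMN_1216822, had deposited signals of 5409, 4256 and 4282 on wild-type arrays 1, 2 and 3 and of 615, 2526 and 118 on knockout arrays 1, 2 and 3. Every knockout array lay below every wild-type array, and the dimmest arrays had the lowest values. After normalization of the 5 arrays, the 3 wild-type livers averaged 11.99 ± 0.00 (SD) on the log2 scale and the 2 knockout livers 10.74 ± 0.31 (SD). The probe fell 2.38-fold, by 1.25 ± 0.18 (SE) on the log2 scale, with a 95% interval of the log2 difference of -1.67 to -0.83 (limma adjusted p = 0.0412).

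At the dimmest of the Insig2 probes, ILMN_1234858, wild-type arrays gave 1290, 1062 and 965, and knockout arrays gave 180, 542 and 89.5, the last not detected (detection p 0.0566). The groups again did not overlap. Normalized log2 signals of 9.83 ± 0.07 and 8.30 ± 0.31 were 2.89-fold apart, and the probe fell by 1.53 ± 0.18 (SE) on the log2 scale, with an interval of -1.95 to -1.11 (adjusted p = 0.0227). The remaining probe, ILMN_2690256, had 3328, 2902 and 2848 in wild type against 500, 1824 and 105 in the knockout, and here too the groups were separate. Its log2 difference was -1.05 ± 0.17, with an interval of -1.43 to -0.67, and it did not pass (adjusted p = 0.0579). By p-value the 3 probes ranked 20, 43 and 55 among 14345 tested, and the calls ended at 49.

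**Figure D1:**
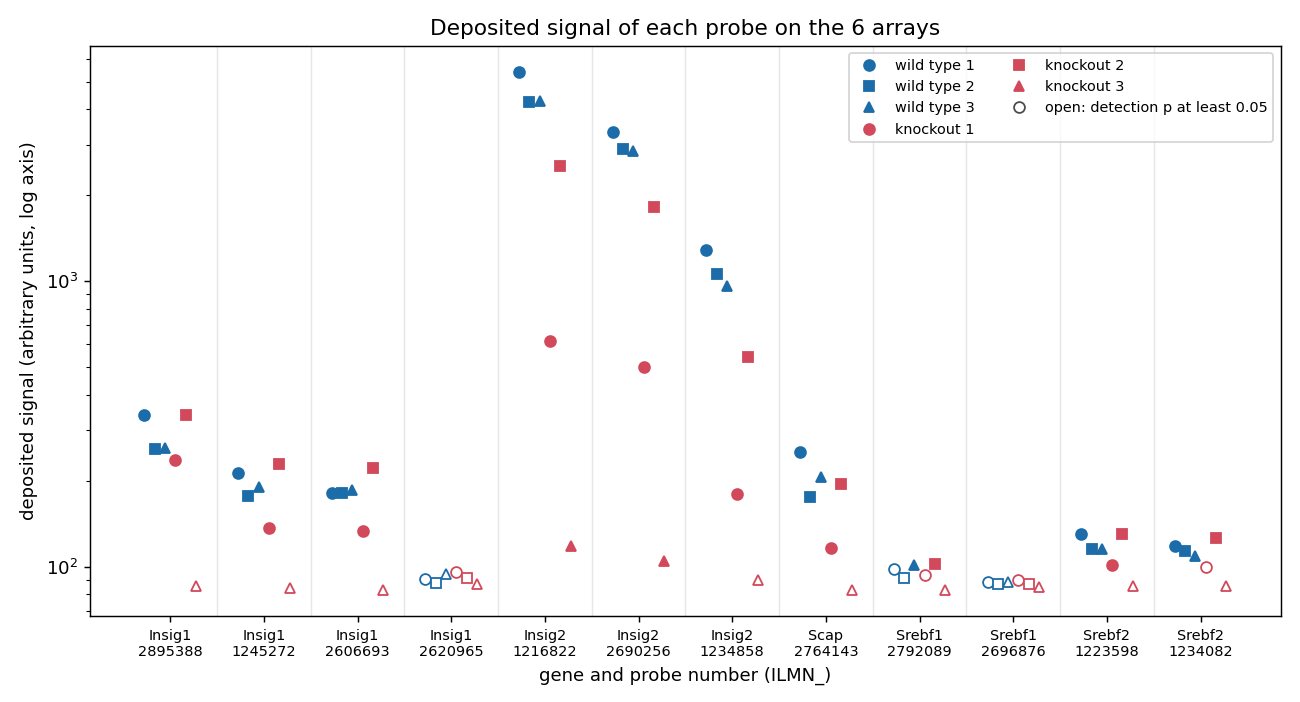
Deposited signal (log axis, arbitrary units) of all 12 probes of the 5 genes on the 6 arrays; blue points are wild type, red points knockout, shapes give the replicate and open symbols were not detected. The red points of Insig2 lie below all blue points at each of its 3 probes, while for the 3 detected Insig1 probes the square of knockout 2 lies at or above the wild-type points and the circle of knockout 1 below them.

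The 2 calls among the 9 tested probes of these genes compare with 0.279% of all 14345 tested probes that were called lower. Calls in the higher direction were 0 of 9, against 0.0627% of all. At an unadjusted p under 0.05 there were 5 of 9, against 12.1% of all probes: all 3 Insig2 probes, 1 Insig1 probe and Scap. After normalization both knockout arrays lay below every wild-type array for 4 of 9 (Insig2 and Scap), against 16.4% of all. They lay above every wild-type array for 3 of 9 (Insig1), against 12.9% of all. In deposited signals neither Scap nor Insig1 was separated in this way. Probes of 1 gene share its transcripts and are not separate evidence.

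Both knockout livers shared the low Insig2 level. Against the wild-type mean, ILMN_1216822 was at -1.47 on knockout array 1 and -1.03 on knockout array 2, log2 differences below which lay 0.648% and 0.704% of tested probes. For ILMN_2690256 the values were -1.19 and -0.92, and for ILMN_1234858 -1.75 and -1.31. In each case knockout 1, from the dimmer array, was the lower. Over the 5 arrays the 3 probes correlated with each other at r = 0.994 to 0.998, as a description of 5 points that hold both groups.

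**Figure D2:**
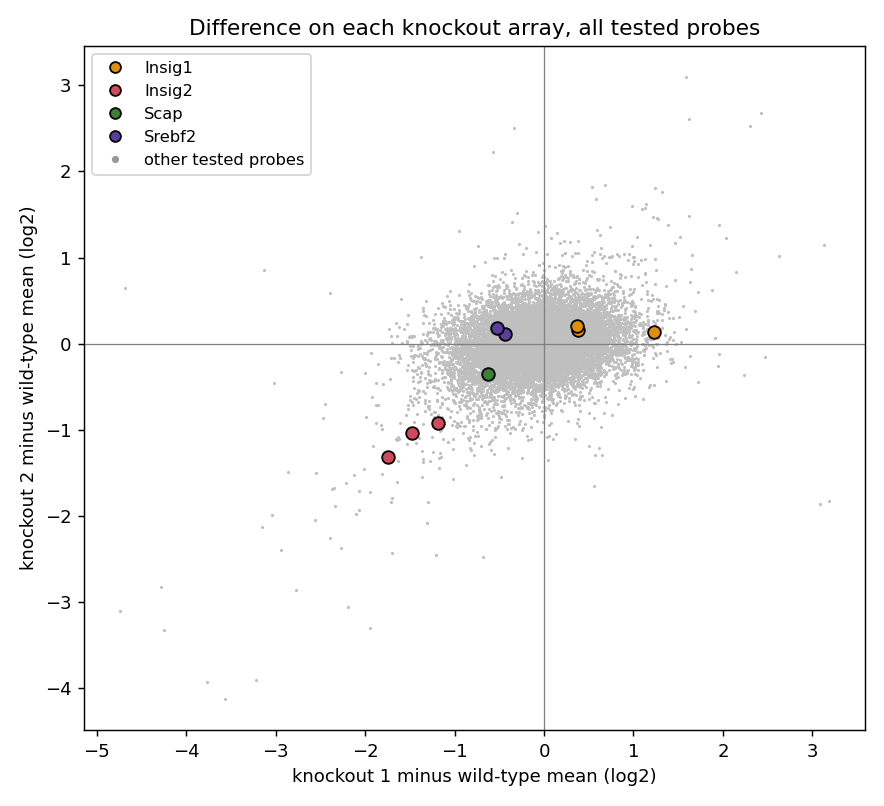
Log2 difference from the wild-type mean on knockout array 1 (x axis) and knockout array 2 (y axis) for every probe tested in the 5 arrays, in grey, with the probes of 4 genes in colour; both axes share the wild-type mean. The 3 Insig2 points lie at the lower left edge of the cloud, from -1.19 to -1.75 on x and -0.92 to -1.31 on y, and the Insig1 points lie to the right of 0.

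The deposited signals carry the same order without any normalization. On knockout array 2, whose median tested probe stood at 106% of its wild-type mean, the Insig2 probes stood at 54.3%, 60.3% and 49.0%. On knockout array 1 the median probe was at 76.4% and the Insig2 probes at 13.2%, 16.5% and 16.3%. The Insig1 probes were at 119%, 118% and 121% on knockout array 2 and at 82.7%, 71.0% and 72.7% on knockout array 1. The median tested probe had a wild-type mean signal of 147, against 183 to 286 for these Insig1 probes and 1106 to 4649 for Insig2. It is therefore not matched to them in brightness. After normalization ILMN_2895388 of Insig1 stood at 1.23 on knockout array 1, and 99.4% of tested probes lay below it there.

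Without any 1 wild-type mouse the differences were nearly the same, -1.26 to -1.25 for ILMN_1216822 and -1.56 to -1.49 for ILMN_1234858, but with fewer arrays neither passed (adjusted p = 0.191 to 0.231 and 0.107 to 0.144). Median scaling, which moved the median of all probes to -0.42, gave -1.99, -1.78 and -2.23 for ILMN_1216822, ILMN_2690256 and ILMN_1234858, with an adjusted p of 0.776 for each.

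With all 6 arrays limma called 0 of 14494 probes (0%), 0 of the 9 among them, with a smallest adjusted p of 0.375. The Insig2 differences there were -1.14, -1.04 and -1.90, for ILMN_1216822, ILMN_2690256 and ILMN_1234858. Their unadjusted p-values were 0.00226, 0.00181 and 0.00211, and their adjusted p was 0.653. An unadjusted p under 0.05 was reached by these 3 of 9 probes and by 3.85% of all. On knockout array 3 alone ILMN_1216822 and ILMN_2690256 stood at -0.93 and -1.01 against wild type. Both were detected there, but with deposited signals of only 118 and 105, beside a median of 83.7 for all probes of that array. These differences therefore depend on how that dim array was normalized. ILMN_1234858 was not detected on knockout array 3, so its difference over 6 arrays rests in part on a signal at background.

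**Figure D3:**
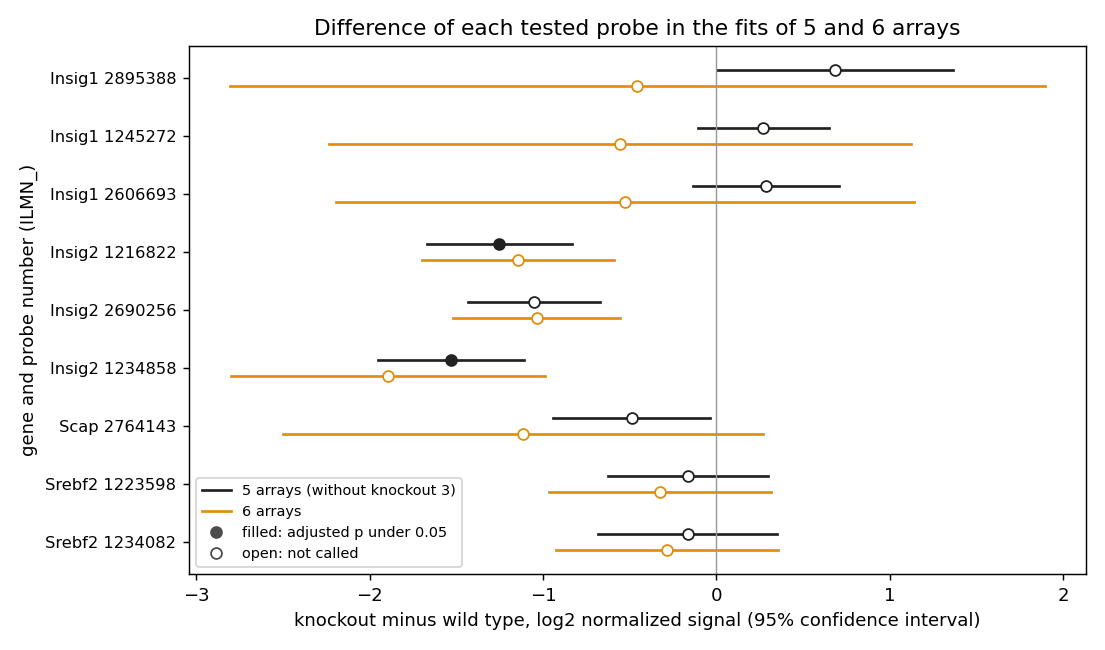
Knockout minus wild type on the log2 scale for the 9 tested probes, with 95% confidence intervals, in the fit of 5 arrays (black) and of 6 arrays (orange); filled points passed an adjusted p of 0.05. Intervals of the 3 Insig2 probes lie below 0 in both fits. The points of the 3 Insig1 probes lie above 0 with 5 arrays and below 0 with 6, where their intervals are wider and span 0.

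Insig1, the SREBP-induced isoform, had its brightest signals at ILMN_2895388, with 339, 259 and 261 in wild type and 237, 341 and 85.7 in the knockout, the last not detected. In deposited units knockout array 2 lay at the level of the highest wild-type array and knockout array 1 below all of them. Normalized, the groups did not overlap, with means of 7.58 ± 0.07 and 8.26 ± 0.78 (SD), and the log2 difference was 0.68 ± 0.29 (SE; adjusted p = 0.411). It came from 1.23 on the dim knockout array 1 and 0.13 on knockout array 2. Without knockout 2 the difference was 1.24 and passed (adjusted p = 0.00746), in a fit with knockout 1 as the lone knockout array, whose spread was taken from wild type. Median scaling turned it to -0.03, against a median of all probes of -0.42.

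The 2 other detected Insig1 probes were dimmer. ILMN_1245272 had 212, 177 and 190 in wild type and 137, 229 and 83.9 in the knockout, a log2 difference of 0.27 ± 0.16 with an interval of -0.11 to 0.65 (adjusted p = 0.524). ILMN_2606693 had 181, 182 and 186 against 133, 221 and 82.9, a log2 difference of 0.29 ± 0.18 with an interval of -0.13 to 0.71 (adjusted p = 0.543). On knockout array 2 both were brighter than on any wild-type array, and on the dimmer knockout arrays 1 and 3 both were below all wild-type arrays. Under median scaling they stood at -0.31 and -0.28, and over all 6 arrays the 3 detected Insig1 probes stood at -0.46, -0.56 and -0.53. The fourth probe, ILMN_2620965, had 87.7 to 94.5 in wild type and 87.2 to 95.8 in the knockout and was detected on 0 of 6 arrays, so it gave no measure of Insig1.

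The ratio of Insig2 to Insig1 within an array does not depend on normalization between arrays. The log2 ratio of ILMN_1216822 to ILMN_2895388, after background correction, was 4.34, 4.49 and 4.48 in wild type and 1.75 and 3.20 on knockout arrays 1 and 2. Both knockout ratios were below all wild-type ratios. On knockout array 3 Insig1 was not detected, so no ratio is given. The difference over the 5 arrays was -1.96 on the log2 scale. A two-sided exact permutation test gave p = 0.1, the smallest that the 10 arrangements of 3 and 2 arrays allow. The test could therefore not reach the level used for calls, whatever the values, and it cannot decide whether the ratio differed. Over the 9 ratios of Insig2 to detected Insig1 probes the differences ran from -2.20 to -1.47. Each had the same exact p of 0.1, before and after Benjamini-Hochberg adjustment over the 9. These ratios share probes and the same 5 arrays, so they are not separate evidence. A ratio shows that the signals of the probes changed unequally and does not say which of them moved. The wild-type mean signals were 1106 to 4649 for Insig2 and 183 to 286 for these Insig1 probes. Whether the dimness of knockout array 1 altered a ratio of bright to dim probes was not tested.

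Scap, the cholesterol-sensing escort, was measured by ILMN_2764143, with 251, 176 and 206 in wild type and 116, 195 and 83.0 in the knockout. Knockout array 2 lay inside the wild-type range and the dim knockout arrays below it. Normalized log2 signals were 6.94 ± 0.24 and 6.45 ± 0.20, a difference of -0.49 ± 0.20 with an interval of -0.94 to -0.03, which did not pass (adjusted p = 0.393). Knockout arrays 1 and 2 stood at -0.63 and -0.35 against the wild-type mean. On this normalized scale knockout array 2, at 6.59, lay just below the lowest wild-type array, at 6.66.

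Srebf2, the precursor of the factor of cholesterol synthesis, was dim. ILMN_1223598 had 130, 115 and 115 in wild type and 101, 130 and 85.7 in the knockout, and ILMN_1234082 had 118, 113 and 109 against 99.6, 126 and 85.5. Each knockout group spanned the wild-type values in deposited units. Their log2 differences were -0.16 ± 0.20 and -0.17 ± 0.22 (adjusted p = 0.759 and 0.785), with intervals of -0.63 to 0.30 and -0.68 to 0.35. Knockout array 1 was below wild type, at -0.44 and -0.52, and knockout array 2 above it, at 0.11 and 0.19; on knockout array 1 ILMN_1234082 was not detected. The direction turned under cyclic loess, at 0.00 and 0.07.

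Srebf1, the precursor of the factor of fatty acid synthesis, could not be read. ILMN_2792089 had 98.2, 91.5 and 101 in wild type and 93.4, 102 and 82.7 in the knockout, and was detected on 2 of 6 arrays. ILMN_2696876 had 86.6 to 88.6 in wild type and 85.0 to 89.8 in the knockout, and was detected on 0 of 6. For comparison, the median of all probes was 91.5 to 94.3 on the wild-type arrays. Neither probe passed the detection filter, so these arrays gave no difference for Srebf1.

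The wider pathway was read from 4 gene lists, each gene by its brightest tested probe. Proteins that move, cleave or degrade the SREBP complex, such as the site-1 protease, the coat of transport vesicles and ubiquitin ligases, had 21 tested genes of 25. Of these 0 were higher, 0 lower and 21 not called. An unadjusted p under 0.05 was reached by 1 above and 1 below 0, and by 12.1% of all tested probes in either direction. Their median log2 difference was 0.01, beside -0.03 for all tested probes. Those with the smallest p were Sec23a, a subunit of the vesicle coat, at -0.49 (adjusted p = 0.337), Erlin1 at 0.51 (adjusted p = 0.393), and Erlin2 at -0.44 and Ube2j2 at 0.45 (adjusted p = 0.411 for both). Erlin1 and Erlin2 are membrane proteins of the degradation pathway of the endoplasmic reticulum, in which Ube2j2 is a ubiquitin-conjugating enzyme.

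Genes of sterol synthesis and uptake, typical SREBP2 targets, had 16 tested genes among the 22 reported here, with 0 called in limma. At an unadjusted p under 0.05 there were 1 above and 1 below 0, where 12.1% of all tested probes reached that level in either direction. The smallest p-values belonged to the sterol reductase Tm7sf2 at -0.57 ± 0.22 (SE) and the methylsterol oxidase Msmo1 at 0.68 ± 0.27 (adjusted p = 0.393 for both), to Fdps, which makes farnesyl diphosphate, at 0.72 ± 0.33 (adjusted p = 0.442), and to Acat2, an acetyl-CoA acetyltransferase, at 0.31 ± 0.16 (adjusted p = 0.476). The members stood on both sides of 0, with 7 of 16 below it.

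The sterol genes stood at different levels in the knockout mice. Of the 16, 13 lay above the wild-type mean on knockout array 2 and 6 on knockout array 1, where 52.3% and 42.3% of all tested probes did. Their median log2 difference was 0.26 on knockout array 2 and -0.16 on knockout array 1, beside 0.01 and -0.08 for all tested probes. Fdps stood at 1.29 on knockout array 2 and 0.15 on knockout array 1. Sqle, the squalene epoxidase, chosen after its values were seen, stood at 1.52 and -0.30 and did not pass as a group difference (adjusted p = 0.635). The median of the list over the 5 arrays was 0.20, and over all 6 it was -0.30, beside -0.28 for all probes.

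Genes of fatty acid synthesis and desaturation, typical SREBP1 targets, had 13 tested genes among the 17 reported here, with 0 higher, 3 lower and 10 not called, where 0.0627% and 0.279% of all tested probes were called higher and lower. The 3 were the desaturases Fads2 and Fads1 and the elongase Elovl5, which make polyunsaturated fatty acids rather than fatty acids from acetyl-CoA. Fads2 fell 6.15-fold (adjusted p = 0.0143), Elovl5 3.77-fold (adjusted p = 0.0189) and Fads1 2.48-fold (adjusted p = 0.0243), and both knockout arrays were below every wild-type array for each. Scd1, the main liver stearoyl-CoA desaturase, chosen after its values were seen, stood at -0.92 (adjusted p = 0.394). The median of the list was -0.34, beside -0.03 for all tested probes, and -0.73 over all 6 arrays, beside -0.28. Without any 1 wild-type mouse Elovl5 stood at -1.98 to -1.83 (adjusted p = 0.0793 to 0.106) and Fads1 at -1.38 to -1.26 (adjusted p = 0.106 to 0.166), so the size held and the call did not. Fads2 stood at -2.51 without wild type 2 (adjusted p = 0.106) and at -2.59 without wild type 3 (adjusted p = 0.0648). Without wild type 1 it stood at -2.72 and was still called (adjusted p = 0.0390).

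The last list held liver X receptors, which sense oxysterols and drive Srebf1, their targets and the further nuclear receptors Rxra and Nr1h4. It had 8 tested genes of 10, with 0 higher, 0 lower and 8 not called. The counts were the same at an unadjusted p under 0.05, which 12.1% of all tested probes reached in either direction. The smallest p-values belonged to the phospholipid acyltransferase Lpcat3 at -0.32 (adjusted p = 0.467), the ubiquitin ligase Mylip at 0.50 (adjusted p = 0.507), the bile acid receptor Nr1h4 at -0.21 (adjusted p = 0.654) and Rxra, the partner of these receptors, at -0.22 (adjusted p = 0.678). The median of the list was -0.17, beside -0.03 for all tested probes, and -0.15 over all 6 arrays, beside -0.28, so it lay below the median of all probes in 1 fit and above it in the other.

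**Figure D4:**
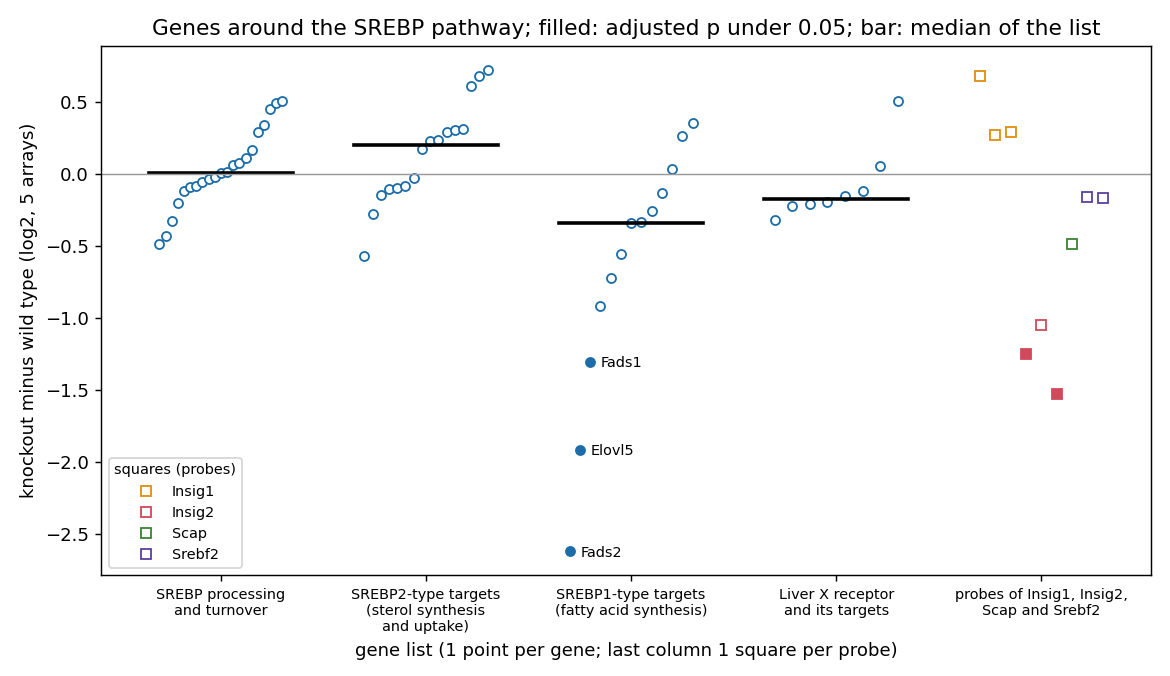
Knockout minus wild type on the log2 scale in the 5 arrays for the tested genes of 4 lists, 1 point per gene in order of value, and for the 9 tested probes as squares; filled symbols passed an adjusted p of 0.05 and bars are list medians. Filled symbols are Fads1, Elovl5 and Fads2 from -1.31 to -2.62 and 2 Insig2 probes at -1.25 and -1.53.

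Other tested probes followed the pattern of the INSIG genes over the 5 arrays. Closest to ILMN_1216822 of Insig2 were probes of Zfp313 (r = 0.9997), Gpc1 (r = 0.999) and Vav2 (r = 0.999), and 43 tested probes exceeded r = 0.99. Among these Gpc1, a cell-surface proteoglycan, was also called, with a log2 difference of -1.24 (adjusted p = 0.0446), while Zfp313 and Vav2 stood at -0.51 and -0.49. Closest to ILMN_2895388 of Insig1 were Srrm2, Tyms and Acss1 (r = 0.999, 0.999 and 0.998), at 0.42, 0.53 and 0.63 and not called, and 48 tested probes exceeded r = 0.99. These are likenesses over 5 arrays that hold both groups, with no test.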

How the data were processed

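Liver RNA of 6 mice was measured on 1 Illumina WG-6 array each. The authors' deposited tables give, per the file headers, an average signal per probe, a linear intensity whose values show no normalization or background subtraction, and a detection p-value per probe. BeadStudio 3 is named in the submitters' processing notes. The authors' value table, also linear intensities, served as an alternative; its columns for wild types 2 and 3 were exchanged relative to the arrays.

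The neqc function of limma 3.58.1 (R 4.3.3) corrected background by normexp with an offset of 16, quantile-normalized and took log2. A probe was tested if at least 3 arrays had a detection p under 0.05, which left 14345 in the 5 arrays and 14494 in all 6. The linear model (lmFit, eBayes) held genotype alone. P-values, two-sided, were adjusted over all tested probes by Benjamini-Hochberg, and calls needed an adjusted p under 0.05. Replicates are separate mice, and their number limits the precision. The steps were tested on simulated data. Figures used matplotlib 3.10.9.

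The genes, lists, markers and the use of 5 arrays were chosen with earlier results of these data known. Named were every probe of the 5 genes, Creb3l3, the called members of each list or otherwise the 4 with the smallest p, and the 3 probes most correlated with the brightest probe of each INSIG gene; Scd1 and Sqle were named after their values were seen. Some list genes are not reported here, and list counts and medians leave them out. Processing alternatives numbered 20, of which 3 were added after seeing the data.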

Additional observations from a re-analysis of the deposited data

How the results depend on the processing

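All 3 Insig2 probes kept a negative difference under all 20 alternatives, from -3.45 to -1.02 (ILMN_1216822), -3.26 to -0.91 (ILMN_2690256) and -3.30 to -1.30 (ILMN_1234858), and were called under 9, 8 and 12 of them. Of the tested probes of these genes 2 were called in the 5 arrays. That count was 0 with all 6 arrays, under median scaling, with no filter, and with all 6 arrays under median scaling or in the authors' value table. It was 3 under cyclic loess, a normexp offset of 50, no background correction, a trended and robust variance, the authors' value table and quantile normalization on the log2 scale, 5 with array weights over 6 arrays, and 0 to 4 when 1 mouse was left out; with 1 knockout array left, that array is assumed to vary like wild type. For ILMN_1216822 and ILMN_1234858 the adjusted p was 0.0741 and 0.0390 without knockout 1, and Fads1 had 0.0521. Over all tested probes the 49 calls became 0 with all 6 arrays in each of the 3 forms tried, 83 under cyclic loess and in the authors' value table, 4 under median scaling, 108 with an offset of 50, 85 without background correction, 1 with no filter, 122 with a trended and robust variance, 2832 with array weights and 9 to 2234 when 1 mouse was left out, the highest without knockout 2. Array weights gave 87.2% of the knockout weight to the dim knockout 1. No pairing of samples by replicate number was seen. Same-numbered deviations correlated at -0.05, -0.05 and 0.04, and not every sample correlated best with its own number. All correlations, of any numbers, lay between -0.05 and 0.08, so this check cannot exclude pairing. With a replicate block 1 of these probes and 47 of all were called, and with the block for wild types 2 and 3 exchanged 1 and 56.

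Directions turned at the Insig1 probes ILMN_2895388, ILMN_1245272 and ILMN_2606693: to -0.46, -0.56 and -0.53 with all 6 arrays, -0.033, -0.31 and -0.28 under median scaling, -1.12, -1.04 and -0.99 with both, and -0.085, -0.19 and -0.17 for 6 arrays in the authors' value table. At the Srebf2 probes they turned to 0.0048 and 0.073 under cyclic loess, and when 1 mouse was left out they ran from -0.42 to 0.12 and from -0.49 to 0.20, the positive values without knockout 1. The causes were not tested. Signals near background limit Srebf1, Srebf2 and the fourth Insig1 probe, and the 3 and 2 arrays limit every test.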
